A study of Mus musculus with 2 samples.

Results

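The genes described here are 10 secreted members of the bone morphogenetic protein (BMP) system in the embryonic mouse limb: the 7 ligands Bmp2, Bmp4, Bmp5, Bmp6, Bmp7, Gdf5 and Gdf6 and the 3 antagonists Nog, Grem1 and Chrdl1. They were taken by symbol from the 32285 genes listed in each deposited matrix, and all 10 were found in both. The samples were wild-type C57Bl/6 embryos of 2 stages, E12.5 and E15.5, with fore- and hindlimb muscle tissue of each age pooled into 1 single-cell library. How many embryos were pooled, and their sex, is not given in the labels. Because each age is 1 library, no difference between the ages has a replicate check and no test across samples could be made. Every interval below is a 95% interval that covers counting error only.

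BMP ligands are secreted dimers of the TGF-beta superfamily that bind type I and type II receptor kinases, which phosphorylate the Smad1, Smad5 and Smad9 proteins. Antagonists such as noggin and gremlin bind the ligands outside the cell and keep them from their receptors. In the limb the system is known for its parts in patterning, in cell death between the digits, in cartilage formation and in the making of joints, and BMP signalling also bears on when muscle progenitors differentiate.

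The E12.5 matrix held 34907675 UMIs (unique molecular identifiers, each marking a captured RNA molecule) in 12941 barcodes, and the E15.5 matrix 46966083 UMIs in 5780 barcodes. The median barcode had 2384 UMIs in the younger library and 7332.5 in the older one, and 17 barcodes occurred in both libraries. After filtering, 11001 and 3916 cells remained. Levels are given as CPM, the gene's UMIs divided by all UMIs of the cells named and scaled to a total of 1000000, and shares of cells after thinning each cell to 2000 UMIs. Cell classes were named from marker genes and carry the ending "-like". The 10 genes were left out of the genes used for clustering, so no cluster was drawn from their levels. Most cells were mesenchymal rather than muscle. Connective tissue-like cells made up 55.8% of the E12.5 cells and 40.7% of the E15.5 cells, whereas muscle lineage-like cells made up 5.48% and 10.1%. All 11 muscle markers, among them Pax7, Myod1 and Myog, were at least 2-fold higher in the muscle lineage-like class than in other cells at both ages. The class was named from these same markers, so their levels are no separate check of the name.

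Over all cells, 5 of the 10 genes were at least 2-fold lower at E15.5 than at E12.5 and none was at least 2-fold higher. The background for these counts was 20.5% of the 17045 genes with at least 20 UMIs lower and 12.2% higher. The median log2 ratio of E15.5 over E12.5 was -1.33 for the 10 genes and -0.31 for all genes. These totals move both with the level per cell and with the make-up of the library, and the 2 cannot be told apart here.

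Gdf5, a ligand that marks the zones where joints form, had 951 UMIs in the E12.5 library but 210 in the older one, or 33.7 and 5.15 CPM. Its log2 ratio was -2.71 (-2.93 to -2.49). Nog encodes noggin, and its 730 and 242 UMIs came to 25.9 and 5.94 CPM, a log2 ratio of -2.12 (-2.34 to -1.91). Chrdl1 (chordin-like 1) had 851 and 313 UMIs, or 30.1 and 7.68 CPM, with a log2 ratio of -1.97 (-2.16 to -1.78). Both antagonists were thus lower at the later age by more than the counting error. Bmp5, the ligand of the mouse short-ear locus, had 925 and 395 UMIs, or 32.8 and 9.69 CPM, with a log2 ratio of -1.76 (-1.93 to -1.59). Grem1 (gremlin 1) is the remaining antagonist and had 1057 and 479 UMIs, or 37.4 and 11.8 CPM, with a log2 ratio of -1.67 (-1.83 to -1.51).

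The other 5 ligands stayed within 2-fold over all cells. Bmp2, with 1557 and 1138 UMIs, had a log2 ratio of -0.98 (-1.09 to -0.87), just inside the threshold. Bmp4, with 1149 and 1363 UMIs, had a log2 ratio of -0.28 (-0.40 to -0.17), and Bmp7, with 520 and 464, one of -0.69 (-0.88 to -0.51). Bmp6 and Gdf6 were scarce: Bmp6 had 52 and 109 UMIs and Gdf6 31 and 83. Their log2 ratios were 0.54 (0.05 to 1.04) and 0.89 (0.28 to 1.54), so that the 2 scarcest genes were the only ones of the 10 with a positive ratio.

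**Figure D1:**
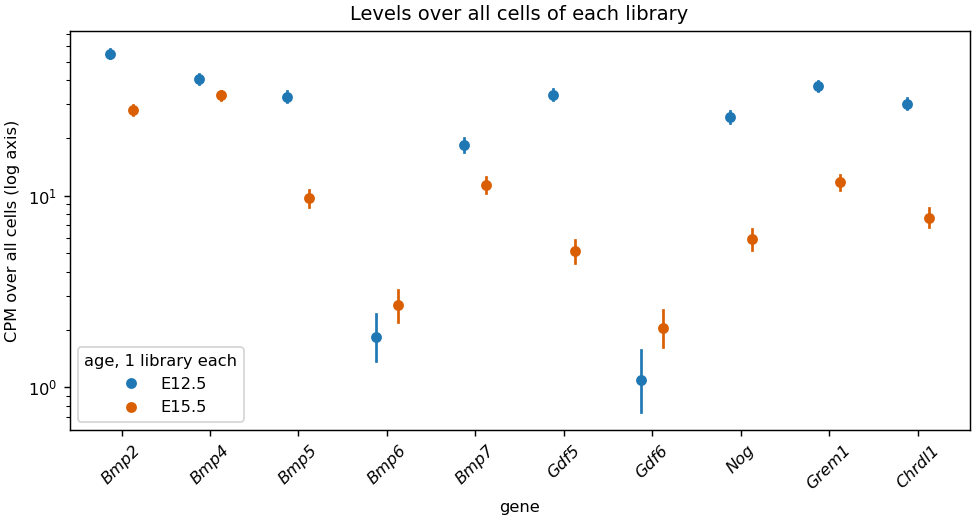
CPM over all cells of each library (log axis) for the 10 genes, with points at the value and lines at the 95% counting interval, E12.5 in blue and E15.5 in orange. The points of Bmp5, Gdf5, Nog, Grem1 and Chrdl1 at E15.5 lie at least 2-fold under those at E12.5, and those of Bmp6 and Gdf6 lie above.

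Bmp5 lies on chromosome 9 at chr9:75775364-75900310 on the plus strand, and Grem1 on chromosome 2 at chr2:113746164-113758646 on the minus strand (GRCm38, GENCODE vM21). The RefSeq promoter table matched 4 of the 10 genes, and the 250 bases before the transcription start are shown for these 2 because they were both lower at E15.5. The Bmp5 window is chr9:75775115-75775364 and the Grem1 window chr2:113758649-113758898, both from RefSeq on GRCm38.p6 and written 5′ to 3′ on the gene's own strand. Capitals mark GGGCGG, the core of the GC box, on either strand.
Bmp5: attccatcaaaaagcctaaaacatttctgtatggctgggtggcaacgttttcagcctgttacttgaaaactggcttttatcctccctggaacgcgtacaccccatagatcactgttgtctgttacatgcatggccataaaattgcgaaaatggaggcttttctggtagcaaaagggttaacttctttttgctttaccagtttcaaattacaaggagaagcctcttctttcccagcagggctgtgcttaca
Grem1: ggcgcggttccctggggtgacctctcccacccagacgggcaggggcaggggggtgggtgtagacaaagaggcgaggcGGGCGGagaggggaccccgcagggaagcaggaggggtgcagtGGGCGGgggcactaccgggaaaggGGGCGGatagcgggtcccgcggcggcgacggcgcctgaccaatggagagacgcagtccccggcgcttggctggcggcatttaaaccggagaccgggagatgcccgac
The windows differ in composition, with 72% G and C in Grem1 and 42.8% in Bmp5, against a median of 52.4% over 32851 promoter windows of the same length. GGGCGG occurred 3 times in Grem1 and not in Bmp5, and 32.7% of all windows held it on either strand. The Smad motif CAGAC occurred once in each window and was in 42.2% of all windows. GGCGCC, a palindrome bound by Smad proteins, occurred once in Grem1 and not in Bmp5, and was in 9.59% of all windows. Neither window held TATAAA, which 12.4% of windows did. None of the marked GGGCGG runs overlapped the GGCGCC run in Grem1.

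Among the named classes of at least 20 cells at E12.5, all 10 genes had their highest level in a mesenchymal one. The mesenchymal classes here were the connective tissue-like, joint interzone-like and chondrocyte-like classes. The joint interzone is the layer of flattened cells between cartilage anlagen from which joint tissues form. The joint interzone-like class was 1 cluster of 1318 cells led by Sfrp2, Scrg1 and Osr2. Of its 7 markers, 4 (Barx1, Dcx, Osr2 and Wnt4) were at least 2-fold higher there, and Wnt9a, Erg and Prg4 were not. Erg was at least 2-fold higher in other clusters, among them the endothelial-like one and a chondrocyte-like one. Gdf5 itself took no part in the naming. At a clustering resolution of 0.5, and with both libraries clustered together, no class took this name. The interzone and 2 further classes held genes at least 2-fold higher than in all other cells. They were Gdf5, Nog and Chrdl1 in the joint interzone-like class (3 of 10, background 4.26% of all genes), Nog and Bmp7 in the chondrocyte-like class (2 of 10, background 4.56%) and Grem1 and Gdf6 in the connective tissue-like class (2 of 10, background 4.34%). No member passed this mark in muscle lineage-like (background 6.01%), endothelial-like (background 11.3%) or erythroid-like cells (background 5.35%). Bmp7 in chondrocyte-like cells lay just past 2-fold at a log2 difference of 1.01 and lay inside it under most alternatives, at 0.41 with doublets kept and 0.18 with both libraries clustered together. Gdf6 in connective tissue-like cells rested on 25 UMIs, and its log2 difference of 1.75 came to 0.21 at a resolution of 2 and to 0.73 with both libraries clustered together, inside 2-fold. Classes under 20 cells were not ranked. Among these, 17 epithelial-like cells had 9 Bmp7 UMIs, or 169 CPM (77.5 to 322), above every ranked class.

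Gdf5 reached 208 CPM (191 to 227) in the joint interzone-like cells, which held 536 of its UMIs, 56.4% of all, with 9.11% of all UMIs. The next highest mesenchymal level was 15.1 CPM (13.2 to 17.2) in connective tissue-like cells, and chondrocyte-like cells had 5.47 CPM (3.24 to 8.65). Erythroid-like cells ranked between, at 37.4 CPM (12.1 to 87.3) from only 5 UMIs. A second high value, 156 CPM (121 to 197), came from an unnamed cluster of 151 cells led by Barx1, Pax9 and Scrg1. Of the 236 Gdf5 UMIs in connective tissue-like cells, 73 lay in 519 cells led by the cell division genes Cenpf, Cdc20 and Ube2c. That cluster had 41.7 CPM (32.7 to 52.4), so the class value also holds dividing cells placed by their cell cycle genes. After thinning, 157 of 532 joint interzone-like cells deep enough (29.5%, exact binomial interval 25.7 to 33.6) held a Gdf5 UMI, and 28.7% of all 1318 before thinning. In endothelial-like cells, which should lack the gene, 1 of 116 did (0.862%). The median depths of the 2 classes were 1846 and 3871 UMIs. The share in joint interzone-like cells was thus far above that in endothelial-like cells, although the latter were deeper.

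Chrdl1 was also highest in the joint interzone-like class, at 115 CPM (102 to 129) from 296 UMIs. Connective tissue-like cells followed at 24.1 CPM (21.7 to 26.7) and chondrocyte-like cells at 20.1 CPM (15.52 to 25.5), and these 2 intervals overlapped. The highest cluster was another one, 202 connective tissue-like cells led by Hoxa11os, Tmem178b and Sall1, at 275 CPM (222 to 336). Thinned to 2000 UMIs, 89 of 532 joint interzone-like cells (16.7%) had a Chrdl1 UMI and none of 116 endothelial-like cells, with an upper 95% bound of 3.13%. In the joint interzone-like class, 34 of 157 cells with a Gdf5 UMI also had a Chrdl1 UMI (21.7%, 15.49 to 28.9), against 55 of 375 cells without one (14.7%, 11.2 to 18.7). These intervals overlapped.

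Nog was highest in chondrocyte-like cells, at 82.1 CPM (72.6 to 92.5) from 270 UMIs, with an interval that overlapped that of the joint interzone-like class at 68.0 CPM (58.3 to 78.9). Within the chondrocyte-like class the cluster led by Matn1, Hapln1 and Epyc stood at 143 CPM (123 to 165) and the one led by Hapln1, Matn1 and Acan at 82.8 CPM (63.3 to 106). The cluster led by Runx3, Runx2 and Cytl1 had 19.8 CPM (12.8 to 29.2). Matn1 encodes matrilin 1 and Acan aggrecan, both of the cartilage matrix, so that the high clusters were those with cartilage matrix genes in the lead. The unnamed Barx1 and Pax9 cluster was close to the first of these, at 147 CPM (114 to 187). Muscle lineage-like cells ranked after these 2 among the named classes, at 28.6 CPM (22.3 to 36.0), above connective tissue-like cells at 6.91 CPM (5.67 to 8.34). In the muscle lineage-like class the 395 cells led by Msc and Pax7, marker genes of muscle progenitors, had 35.0 CPM (26.4 to 45.6), and the 159 cells led by Myog, the gene of a differentiation factor, had 9.70 CPM (3.56 to 21.1). After thinning, 26 of 551 muscle lineage-like cells (4.72%, 3.11 to 6.84) and 3 of 116 endothelial-like cells (2.59%, 0.54 to 7.37) had a Nog UMI, with overlapping intervals. Before thinning the shares were 9.62% and 2.31%.

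Grem1 had another source. Connective tissue-like cells had 55.3 CPM (51.7 to 59.2), joint interzone-like cells 19.0 CPM (14.1 to 25.2) and chondrocyte-like cells 5.47 CPM (3.24 to 8.65). Within the connective tissue-like class it was uneven. The cluster of 560 cells led by Dcn, Kera and Sall1 had 292 CPM (262 to 325) and held 32.3% of all Grem1 UMIs with 4.14% of all UMIs. The clusters led by Calb2, Lum and Kera and by Calb2, Dkk2 and Apcdd1 had 141 CPM (117 to 169) and 96.5 CPM (84.0 to 110). Dcn, Lum and Kera encode small leucine-rich proteoglycans of collagenous matrix. The class value turned on where such clusters were placed: its log2 difference from all other cells was 1.86 (1.63 to 2.09), but 0.12 with doublets kept, -0.18 at a clustering resolution of 0.5, where a cluster led by Dcn and Kera took the tenocyte name, -0.83 with the 10 genes and the pathway genes kept for clustering and -0.27 with both libraries clustered together.

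**Figure D2:**
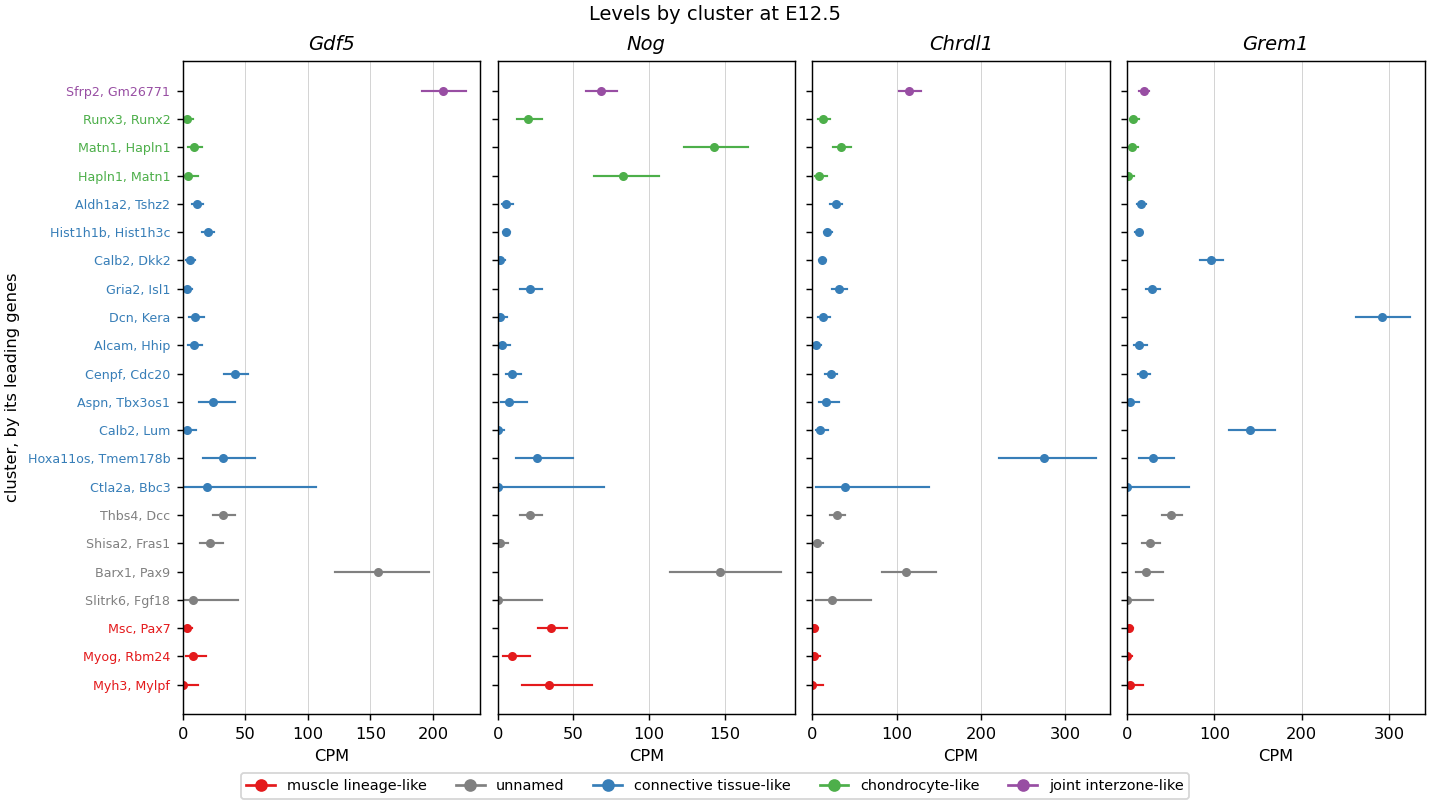
CPM of Gdf5, Nog, Chrdl1 and Grem1 at E12.5 in each mesenchymal, unnamed or muscle cluster of at least 20 cells (points, with 95% counting intervals as lines), rows named by the 2 leading genes and coloured by class. Gdf5 peaks in the Sfrp2 cluster at 208 CPM, Nog in the Barx1 and Matn1 clusters, Chrdl1 in the Hoxa11os cluster at 275 CPM and Grem1 in the Dcn and Kera cluster at 292 CPM.

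Among the BMP ligands at E12.5, Bmp2 was highest in chondrocyte-like cells at 74.5 CPM (65.4 to 84.4), with connective tissue-like cells close at 63.3 CPM (59.5 to 67.4) and overlapping intervals. Its highest cluster was connective tissue-like, 713 cells led by Gria2, Isl1 and Hoxb4, at 183 CPM (163 to 205). Bmp4, a ligand of early limb mesenchyme, had 52.9 CPM (44.3 to 62.5) in joint interzone-like and 49.8 CPM (46.3 to 53.4) in connective tissue-like cells, also with overlapping intervals. The cluster led by Aspn, Tbx3os1 and Tbx3 had the most Bmp4, 106 CPM (80.6 to 138). Bmp5 stood at 38.5 CPM (35.4 to 41.7) in connective tissue-like and 28.9 CPM (23.4 to 35.3) in chondrocyte-like cells, whose intervals did not overlap, and at 78.5 CPM (65.2 to 93.6) in an unnamed cluster led by Thbs4, Dcc and Twist2. Bmp7 had 33.1 CPM (27.2 to 40.0) in chondrocyte-like and 19.6 CPM (17.4 to 21.9) in connective tissue-like cells. Muscle lineage-like cells were low for these 4 ligands, between 4.02 CPM for Bmp2 and Bmp5 and 8.45 CPM for Bmp4. Bmp6 and Gdf6 had under 10 CPM in every cluster of at least 20 cells, and for Bmp6 the intervals of the 3 mesenchymal classes overlapped.

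At E15.5, 7 of the 10 genes were highest in a mesenchymal class, a count again without a background over all genes. The exceptions were Nog in muscle lineage-like cells, Bmp5 in mural-like cells and Bmp7 in epithelial-like cells. No joint interzone-like class was named at this age, and the tenocyte-like class (tendon cells) was named only at this age. The chondrocyte-like class had 8 of the 10 genes at least 2-fold higher than all other cells, all but Bmp4 and Bmp7 (background 7.51% of all genes). The count was 5 with at least 1000 genes per cell, with a larger set of variable genes or with the members and pathway genes kept for clustering, each without Bmp6, Gdf6 and Chrdl1, and 6 with both libraries clustered together, without Gdf6 and Chrdl1. The lowest log2 differences of the genes that dropped out were 0.14 for Gdf6 (2.61 as clustered here), 0.49 for Bmp6 (1.39) and -0.45 for Chrdl1 (1.40). The tenocyte-like class had 3, Bmp4, Bmp5 and Bmp6 (background 4.32%), the mural-like class 1 (Bmp5, background 7.28%), the epithelial-like class 1 (Bmp7, background 9.78%) and the muscle lineage-like class 1 (Nog, background 5.85%). In tenocyte-like cells Bmp6 rested on 8 UMIs, with a log2 difference of 1.03 (-0.22 to 2.07), an interval that includes 0. Bmp4 there was at 1.08 (0.78 to 1.37), and at 0.98, inside 2-fold, at its lowest under the alternatives. The connective tissue-like class, the largest, had 0 (background 7.42%), as had the endothelial-like class (background 9.75%).

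Gdf5 was found mostly in chondrocyte-like cells, at 39.8 CPM (34.1 to 46.2) from 173 UMIs, 82.4% of all its UMIs. Connective tissue-like cells had 1.04 CPM (0.62 to 1.64), and the muscle lineage-like class had 0 UMIs, with an upper 95% bound of 0.606 CPM. Within the chondrocyte-like class, 365 cells led by Mia, Mecom and Dkk3 had 54.6 CPM (45.8 to 64.6) and 65.2% of all Gdf5 UMIs, whereas the 91 cells led by Col2a1, Matn1 and Col9a1 had 18.0 CPM (9.59 to 30.8). Of the 7 interzone markers, Barx1 and Wnt4 were at least 2-fold higher in the Mia cluster. Gdf6, close kin of Gdf5, had 8.06 CPM (5.61 to 11.2) in chondrocyte-like cells, and the Mia cluster held 29 of the class's 35 UMIs. Chrdl1 was highest in chondrocyte-like cells as well, at 17.3 CPM (13.6 to 21.6), followed by connective tissue-like cells at 10.4 CPM (8.92 to 12.01).

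Nog at E15.5 had 19.9 CPM (16.5 to 23.7) from 121 UMIs in muscle lineage-like cells, which held 50% of its UMIs with 14.9% of all UMIs. Chondrocyte-like cells had 12.4 CPM (9.34 to 16.2), and the 2 intervals did not overlap. The 3 muscle clusters had overlapping intervals, at 23.1 CPM (17.1 to 30.5) and 18.2 CPM (13.5 to 24.1) in the 2 clusters led by Pax7 and Msc, and 18.1 CPM (11.4 to 27.1) in the one led by Mylpf and Myl1, genes of the contractile apparatus. As a single cluster, however, the Col2a1 and Matn1 chondrocyte-like cells were higher than any of them, at 48.5 CPM (33.8 to 67.4), while the Mia cluster had 5.98 CPM (3.35 to 9.86). After thinning, 14 of 389 muscle lineage-like cells (3.60%, 1.98 to 5.96) and none of 132 endothelial-like cells, with an upper 95% bound of 2.76%, had a Nog UMI. Before thinning the shares were 20.7% and 1.95%.

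Grem1 had 23.5 CPM (19.1 to 28.5) in chondrocyte-like and 22.4 CPM (15.52 to 31.3) in tenocyte-like cells, with overlapping intervals, and 15.52 CPM (13.7 to 17.5) in connective tissue-like cells. Its highest clusters were the Col2a1 and Matn1 cells at 59.5 CPM (43.1 to 80.2) and an unnamed cluster of 83 cells led by Twist2, Stmn2 and Irx1 at 47.1 CPM (34.6 to 62.6). The same 83 cells had the highest Bmp2 level, 193 CPM (167 to 223), and held 17.0% of all Bmp2 UMIs with 2.45% of all UMIs. Among named classes Bmp2 was highest in chondrocyte-like cells at 53.4 CPM (46.8 to 60.8), with an interval overlapping that of the 56 immune-like cells at 44.7 CPM (31.1 to 62.1).

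Among the named classes Bmp4 was highest in tenocyte-like cells at 67.9 CPM (55.4 to 82.3), ahead of connective tissue-like cells at 42.5 CPM (39.5 to 45.7) and chondrocyte-like cells at 38.5 CPM (32.8 to 44.7). An unnamed cluster of 345 cells led by Nefm, Tac1 and Sfrp2 was as high, at 67.9 CPM (58.4 to 78.5). It held 13.4% of all Bmp4 UMIs, against 7.56% in the tenocyte-like class. Bmp5 had 33.7 CPM (23.6 to 46.7) from 36 UMIs in mural-like cells, the pericytes and smooth muscle of vessel walls, 31.6 CPM (23.3 to 41.9) in tenocyte-like and 28.3 CPM (23.5 to 33.8) in chondrocyte-like cells. These 3 intervals overlapped, so the rank of mural-like cells was not resolved. As a single cluster, the Col2a1 and Matn1 chondrocyte-like cells had the most Bmp5, at 59.5 CPM (43.1 to 80.2). Muscle lineage-like and endothelial-like cells had no Bmp5 UMI. Bmp7 had 30.3 CPM (16.1 to 51.9) in the 25 epithelial-like cells, from only 13 UMIs, and 14.8 CPM (13.01 to 16.7) in connective tissue-like cells, with overlapping intervals. Bmp6 reached 5.99 CPM (3.91 to 8.77) in chondrocyte-like cells. Its highest cluster was 45 connective tissue-like cells led by Spink6, Anxa8 and Pi16 at 24.8 CPM (12.8 to 43.4), from 12 UMIs. These cells also had 3 of the 7 interzone markers at least 2-fold higher, namely Wnt9a, Prg4 and Osr2.

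**Figure D3:**
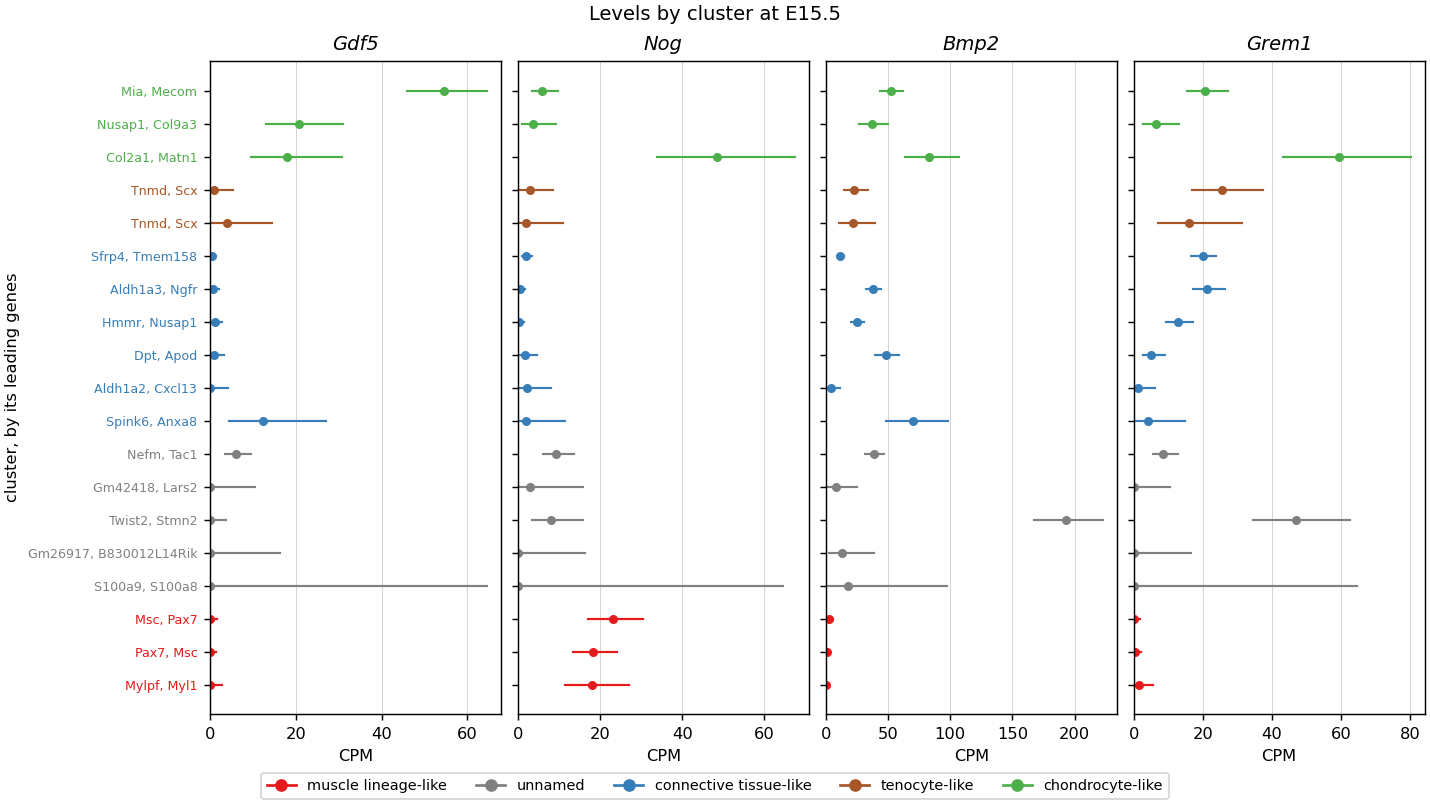
CPM of Gdf5, Nog, Bmp2 and Grem1 at E15.5 in each mesenchymal, unnamed or muscle cluster of at least 20 cells (points, with 95% counting intervals as lines), rows named by the 2 leading genes and coloured by class. Gdf5 lies mainly in the Mia cluster, Nog in the Col2a1 and Matn1 cluster and the 3 muscle clusters, and Bmp2 peaks at 193 CPM in the unnamed Twist2 cluster.

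**Figure D4:**
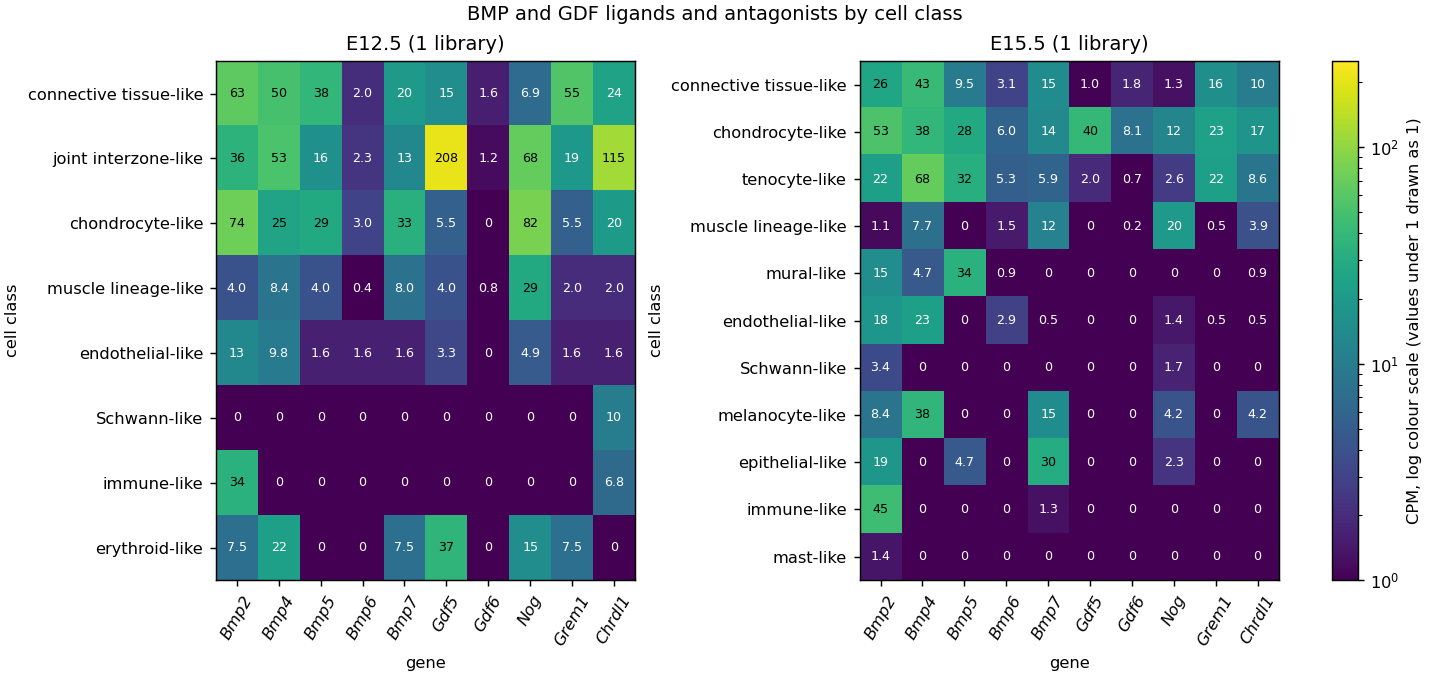
CPM of the 10 genes (columns) in each named cell class of at least 20 cells (rows) at E12.5 and E15.5, 1 library each, on a log colour scale with the value printed in each cell. The brightest values at E12.5 are Gdf5 and Chrdl1 in joint interzone-like cells (208 and 115 CPM), and at E15.5 Bmp4 in tenocyte-like cells (67.9 CPM).

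The ages were then compared within a class. In connective tissue-like cells 6 of the 10 genes were at least 2-fold lower at E15.5 (background 24.5% of 14908 genes lower) and 0 at least 2-fold higher (background 10.5%). The median log2 ratio was -1.24 for the 10 genes and -0.38 for all genes. The class was made of different clusters at the 2 ages: at E12.5 the largest was led by Aldh1a2, Tshz2 and Ebf2, and at E15.5 by Sfrp4, Tmem158 and Clec3b. Gdf5 went from 15.1 to 1.04 CPM (log2 ratio -3.86, -4.64 to -3.17), Nog from 6.91 to 1.27 CPM (-2.45, -3.18 to -1.77) and Bmp5 from 38.5 to 9.46 CPM (-2.02, -2.28 to -1.77). Grem1 went from 55.3 to 15.52 CPM (-1.83, -2.04 to -1.64) and Chrdl1 from 24.1 to 10.4 CPM (-1.22, -1.48 to -0.96). Gdf5, Nog and Bmp5 were at least 2-fold lower under every alternative run, with Gdf5 ratios from -5.25 in cells with female transcripts only to -1.19 with the members and pathway genes kept for clustering. Grem1 was inside 2-fold in cells with female transcripts (-0.92) and with the pathway genes kept for clustering (-0.88). Chrdl1 was inside it with at least 1000 genes per cell (-0.73), with the pathway genes kept (-0.74), with both libraries clustered together (-0.92) and when scaled to the median gene (-0.84).

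Bmp2 in connective tissue-like cells went from 63.3 to 26.3 CPM (log2 ratio -1.27, -1.43 to -1.11), a call that rested on how 1 cluster was named. With the 83 cells led by Twist2, Stmn2 and Irx1 counted as connective tissue-like, as under a looser naming rule, the log2 ratio was -0.84 and the count of lower genes 5. It was -0.89 when scaled to the median gene, -0.74 over all mesenchymal and unnamed clusters together, -0.54 in cells with female transcripts against -2.02 in those with male transcripts, and -0.26 with both libraries clustered together. Bmp4 (-0.23, -0.38 to -0.08), Bmp7 (-0.41, -0.65 to -0.16), Bmp6 (0.58) and Gdf6 (0.16) stayed within 2-fold.

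A comparison that does not depend on which mesenchymal class a cluster was given takes all of these classes together with the unnamed clusters, at both ages. The choice was made after the values were seen. The pool keeps the joint interzone-like cells of E12.5 in. It also takes in unnamed E15.5 clusters without mesenchymal leading genes, such as 28 cells led by S100a9 and S100a8 and 219 led by Gm42418 and Lars2. There 5 of the 10 genes were at least 2-fold lower at E15.5 (background 22.5% of 15969 genes) and 1 was at least 2-fold higher (background 10.1%). The lower genes were Nog (log2 ratio -2.68, -2.98 to -2.39), Gdf5 (-2.31, -2.53 to -2.09), Chrdl1 (-1.72, -1.92 to -1.53), Bmp5 (-1.51, -1.69 to -1.33) and Grem1 (-1.30, -1.46 to -1.14), the same 5 as over all cells. All 3 antagonists were among them, and Bmp5 and Gdf5 were the only ligands. Gdf6 was the higher gene, at 1.17 and 2.98 CPM from 29 and 82 UMIs (1.34, 0.72 to 2.01). Bmp4 had 45.3 and 45.1 CPM, with a log2 ratio of 0.00 (-0.12 to 0.11).

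In chondrocyte-like cells 3 of the 10 genes were at least 2-fold higher at E15.5 (background 10.1%) and 2 at least 2-fold lower (background 13.8%). Most of this class was the Runx3 and Matn1 clusters at E12.5 and the Mia cluster at E15.5, so that the values compare different cells. Gdf5 went from 5.47 to 39.8 CPM (log2 ratio 2.86, 2.16 to 3.65) and Grem1 from 5.47 to 23.5 CPM (2.10, 1.37 to 2.91). Gdf6 had no UMI in the E12.5 class and 35 UMIs in the later one, at least 8.84-fold higher against a floor of 3 counts in the E12.5 class. Nog went from 82.1 to 12.4 CPM (-2.72, -3.17 to -2.30) and Bmp7 from 33.1 to 14.0 CPM (-1.24, -1.72 to -0.77). With both libraries clustered together Gdf5 was -2.55 and Nog 0.41, the other way round. Grem1 was 0.23 under the looser naming rule, which adds the 762 unnamed E12.5 cells led by Thbs4, Dcc and Twist2 to the class, and 0.89 with doublets kept. Under the looser rule Gdf5 was 1.51 and Bmp7 -0.94, inside 2-fold. Gdf5, Grem1 and Bmp4 (0.61, 0.22 to 1.01) had the opposite sign here to that in connective tissue-like cells, with both intervals away from 0, as had 5.22% of all 12055 genes with enough UMIs. For Bmp4 the sign in either class turned under alternatives, to 0.15 in connective tissue-like cells when scaled to the median gene and to -2.75 in chondrocyte-like cells with both libraries clustered together.

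A closer match of cells came from the clusters with Matn1 among their leading genes, 671 and 91 cells, chosen after the values were seen. Between these, Grem1 went from 4.44 to 59.5 CPM (log2 ratio 3.74, 2.69 to 4.97) and Bmp5 from 21.7 to 59.5 CPM (1.45, 0.81 to 2.09). Nog went from 121 to 48.5 CPM (-1.32, -1.87 to -0.80), a smaller drop than in the whole class. Gdf5 had 14 and 13 UMIs, with a log2 ratio of 1.38 (0.17 to 2.58). Bmp2, at 67.6 and 83.1 CPM, had a log2 ratio of 0.30 (-0.17 to 0.74), an interval that includes 0.

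In muscle lineage-like cells 4 of the 10 genes had at least 20 UMIs over both ages, and 0 of them passed 2-fold in either direction (background 19.2% lower and 4.65% higher). Nog had a log2 ratio of -0.52 (-0.96 to -0.08) and Bmp4 one of -0.13 (-0.90 to 0.69). Bmp7 was at 0.54 (-0.20 to 1.33), and Chrdl1, with 5 and 24 UMIs, at 0.97 (-0.45 to 2.72). The intervals of Bmp4, Bmp7 and Chrdl1 include 0. In endothelial-like cells 2 of the 10 genes had enough UMIs, and Bmp4 was the 1 past 2-fold (background 7.13% higher), with 6 and 47 UMIs and a log2 ratio of 1.21 (-0.02 to 2.72), an interval that includes 0.

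**Figure D5:**
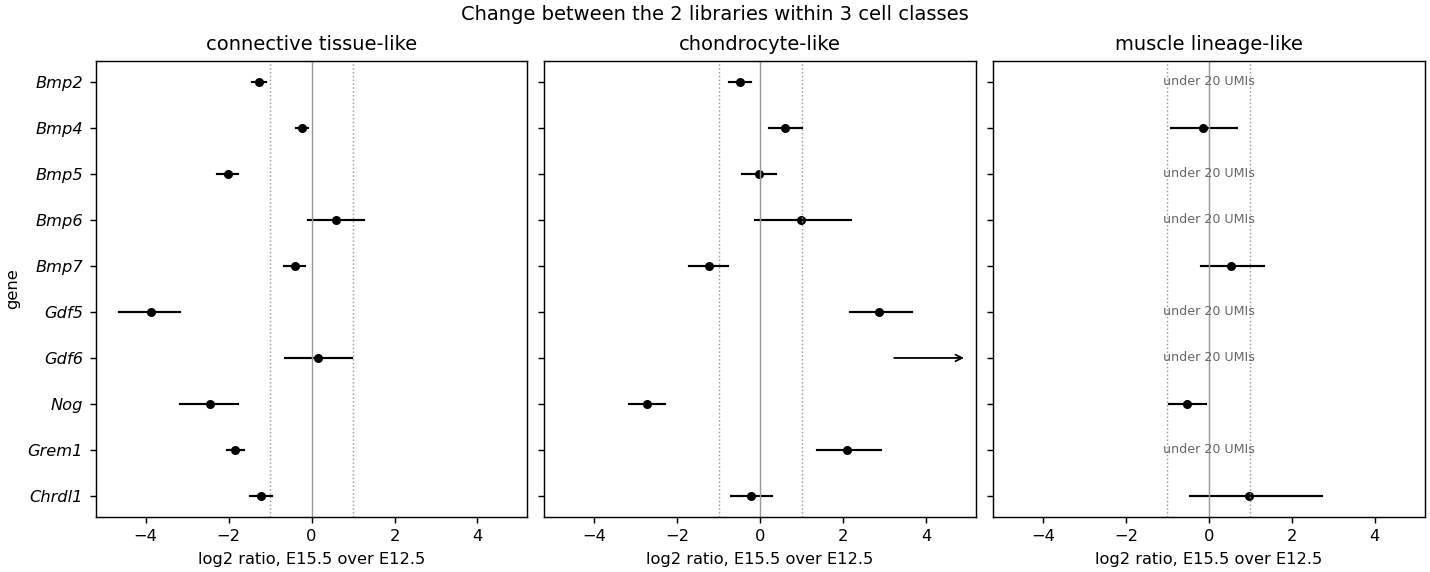
Log2 ratio of E15.5 over E12.5 for the 10 genes in connective tissue-like, chondrocyte-like and muscle lineage-like cells (points, with 95% counting intervals as lines), dotted lines at a 2-fold change. The arrow for Gdf6 starts at its lower bound. In connective tissue-like cells 6 genes lie to the left of the 2-fold line, and Gdf5 and Grem1 lie on opposite sides in the first 2 panels.

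Of 46 other genes of the pathway, 40 had at least 20 UMIs in connective tissue-like cells, of which 13 were at least 2-fold lower at E15.5 and 6 at least 2-fold higher, shares to be read against the same background of 24.5% and 10.5%. Of 13 extracellular modulators counted, 3 were at least 2-fold higher, 1 lower and 9 within 2-fold, with a median log2 ratio of -0.41, against -0.38 for all genes. The higher ones were Fst, Nbl1 and Chrd, and the lower one Tll1, a tolloid-like protease gene. Fst, which encodes the activin and BMP binder follistatin, went from 11.3 to 154 CPM (log2 ratio 3.77, 3.55 to 3.996), and Nbl1, a gremlin relative, from 26.2 to 94.998 CPM (1.86, 1.70 to 2.02). Chrd, which encodes the antagonist chordin, went from 8.64 to 20.9 CPM (1.28, 0.99 to 1.57), and Tll1 from 8.38 to 3.92 CPM (-1.10, -1.54 to -0.66). Both are named because their count was small and after their values were seen. Of 11 receptors counted, 3 were at least 2-fold lower, 2 higher and 6 within 2-fold. Among them Bmpr1b, a type I receptor, went from 46.0 to 12.4 CPM (-1.89) and Acvr2b, a type II receptor, from 26.0 to 6.00 CPM (-2.11). Acvrl1 (3.30) and the co-receptor Eng (2.71), both best known from vessels, were higher in log2 ratio. The signal carrier Smad9 (-2.21) and the response gene Id1 (-1.80), which went from 324 to 93.1 CPM, were lower. Of 6 signal carriers, 4 were at least 2-fold lower and 2 within 2-fold. The 6 response genes were split, with 3 at least 2-fold lower and 3 within 2-fold.

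In muscle lineage-like cells 28 of the 46 had at least 20 UMIs, of which 11 were at least 2-fold lower (background 19.2%) and 2 at least 2-fold higher (background 4.65%). Fst went from 66.4 to 1.64 CPM (log2 ratio -5.34, -6.42 to -4.42), opposite in sign to connective tissue-like cells. Smad7, an inhibitory Smad, went from 57.1 to 13.3 CPM (-2.10). The receptors Bmpr2 (-1.87), Acvr2a (-1.73) and Bmpr1b (-1.43) and the ligand Gdf11 (-1.65) were lower. Of the 10 receptors counted, 7 stayed within 2-fold. Chrd was higher (1.63, 0.49 to 3.01), as was Nbl1 (1.59).

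The genes whose levels followed each of the 10 most closely across clusters were listed where Pearson's r of log2(CPM + 10) was at least 0.8, over the 26 and 27 clusters of at least 20 cells, which share a library within an age. At E12.5 Grem1 was most like Kera (r = 0.88), Dcn (0.87) and Cbln2 (0.84). Bmp5 was most like Ror2 (0.90), Mfap4 (0.90) and Fgfr1 (0.90), Bmp4 like Epha4 (0.87), Shox2 (0.86) and Ednra (0.85), and Bmp2 like Tmed3 (0.84), Bmp5 (0.83) and Tnrc18 (0.83). Nog was most like Jph1 (0.83), Art3 (0.82) and the cartilage collagen gene Col11a2 (0.81), and Chrdl1 like Tab2 (0.86) and Tsc22d1 (0.80). No gene reached 0.8 for Gdf5 or Bmp7, and Bmp6 and Gdf6 were too low to rank. At E15.5 Gdf5 was most like Mia (0.83), Otor (0.81) and Grpr (0.81), and Nog like Atoh8 (0.83). Bmp4 was most like Smarca2 (0.85), Mex3b (0.84) and Dchs1 (0.83), Bmp5 like Gm26903 (0.94), Bmp6 like Riiad1 (0.89) and Rasl10a (0.80), and Chrdl1 like Uggt2 (0.83), Trpm5 (0.83) and Mbtps1 (0.83). No gene was listed for the same member at both ages.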

How the data were processed

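Limb muscle tissue of E12.5 and E15.5 embryos was profiled in droplets (10x Genomics 3-prime chemistry), 1 library per age. Values deposited by the authors are raw UMI counts; per the file headers the matrices come from Cell Ranger 4.0.0, and the submitters' processing notes also name mm10 and Seurat 4.3.0, with no role given. Cells with at least 500 genes and under 10% mitochondrial UMIs were kept, and the highest doublet scores, from 2 simulated doublets per cell, were removed at 0.8% per 1000 barcodes (1270 cells at E12.5, 190 at E15.5). Each library was clustered alone with Leiden (resolution 1, 2000 variable genes, 30 components, 15 neighbours, Python 3.11.15, leidenalg 0.10.2, scipy 1.17.1). The 10 members, 46 pathway, 25 proliferation, 5 limb and 5 sex genes were left out of the variable genes.

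A class needed at least 3 markers 2-fold higher than in other cells and 1 among the 10 leading genes, without more leading markers of other classes. On a tie it needed 5 markers. Remaining clusters with 3 connective tissue markers 2-fold above the pooled non-mesenchymal classes were called connective tissue-like. This rule was tightened after the clusters and the members' values in them had been seen. The earlier, looser rule is given as an alternative: it names 762 cells at E12.5 (Thbs4, Dcc, Twist2) chondrocyte-like and 83 cells at E15.5 (Twist2, Stmn2, Irx1) connective tissue-like.

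Sums of counts per class were compared as CPM, with Poisson, Clopper-Pearson or exact conditional intervals. A difference was called at 2-fold with at least 20 UMIs. With 1 library per age no test was run. Cells with Xist and no Y-linked transcript (5792 of 11001 and 2612 of 3916) or the reverse (1714 and 696) were also compared alone. The ratio between the ages was checked on counts simulated from the connective tissue-like class with counting error only. That check cannot show how well the intervals cover variation between cells or embryos, because none was simulated. The members and gene lists were chosen with earlier results of these data known. Named were all 10 members, pathway genes past 2-fold with at least 50 UMIs (at most 8 per class by size) in connective tissue-like or muscle lineage-like cells, and up to 3 genes most alike with r of at least 0.8.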

Additional observations from a re-analysis of the deposited data

Results flagged for a closer look

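Gdf5, Grem1 and Bmp4, 3 of the 10 genes, had age ratios of opposite sign in connective tissue-like and chondrocyte-like cells, with both counting intervals away from 0. Of all 12055 genes with enough UMIs in both classes, 5.22% did. The difference between the classes was not tested, since each age is 1 library. For Gdf5 the log2 ratio of E15.5 over E12.5 was -3.86 in connective tissue-like and 2.86 in chondrocyte-like cells, and the latter turned to -2.55 with both libraries clustered together. For Grem1 the ratios were -1.83 and 2.10, the latter 0.23 under the looser naming rule. For Bmp4 they were -0.23 and 0.61, and neither sign held throughout: the connective tissue-like ratio was 0.15 when scaled to the median gene and 0.01 with a larger set of variable genes, and the chondrocyte-like one -2.75 with both libraries clustered together. At E12.5, 56.4% of Gdf5 UMIs lay in the joint interzone-like class, which was not named at E15.5.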

How the results depend on the processing

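Over 20 comparisons of a class with all other cells, 169 of 174 values under the alternatives kept their direction, and over 25 age ratios 285 of 306 did. Fewer calls held: of the results past 2-fold, 115 of 140 class values and 119 of 140 age ratios stayed past it in the same direction. The reversals past 2-fold were the Grem1 difference of connective tissue-like cells at E12.5 (-0.18 at resolution 0.5, -0.83 with members and pathway genes kept, -0.27 with both libraries clustered together) and, with both libraries clustered together, Chrdl1 in chondrocyte-like cells at E15.5 (-0.45) and the chondrocyte-like age ratios of Gdf5 (-2.55) and Nog (0.41). The cause was not tested. The number of members at least 2-fold higher at E15.5 in connective tissue-like cells was 0, but 1 with members and pathway genes kept, 1 with both libraries clustered together and 1 over mesenchymal and unnamed clusters pooled. The number lower ranged from 4 to 6. Among classes of at least 20 cells, the number highest in a mesenchymal class was 9 or 10 at E12.5 and ranged from 5 to 9 at E15.5. These counts have no background over all genes. The number of members at least 2-fold higher than in other cells was 3 in joint interzone-like cells wherever that class was named. In chondrocyte-like cells at E12.5 it was 2, but 1 (Nog) with doublets kept, at least 1000 genes per cell, either other resolution, cells of equal weight or the looser naming rule, and 3 with both libraries clustered together. In connective tissue-like cells at E12.5 it was 2, but 1 with doublets kept, at resolution 0.5 or with members and pathway genes kept. It was 0 with both libraries clustered together and 3 at resolution 2, where Gdf6 was lost and Bmp4 and Bmp5 were gained. In chondrocyte-like cells at E15.5 it was 8, but 5 with at least 1000 genes, more variable genes or members and pathway genes kept. With both libraries clustered together it was 6. Pooling, the Matn1 clusters, the looser naming rule and these counts under alternatives were chosen after seeing the data. No paired analysis was possible because each age has 1 library. With 31 and 83 Gdf6 UMIs and 52 and 109 Bmp6 UMIs over all cells, depth limits the values of these genes.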
